A study of Homo sapiens with 6 samples.

Results

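The genes described here are LTBP1 and 9 genes of transforming growth factor beta (TGF-beta) signalling: TGFB1, TGFBR1, TGFBR2, TGFBR3, SMAD2, SMAD3, SMAD4, SMAD7 and SKI. They were chosen from results of this same comparison. LTBP1 was put in for its rise in the resistant line, and the others were proposed for their place in its pathway with results in view, so their own values are given as a description, with no test. The 10 genes are 10 of the 25838 in the deposited table, and all 10 were among the 14869 that passed the filter on low counts.

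RNA was sequenced from Sup-PR, a prednisolone-resistant sub-clone, in 3 libraries and from Sup-B15, the prednisolone-sensitive parental line, in another 3. Both are B-cell precursor acute lymphoblastic leukaemia cells of childhood origin, a disease in which prednisolone, a glucocorticoid, is a mainstay of treatment. Neither line was treated before RNA was taken. The labels call the libraries biological triplicates, but whether they came from separate cultures is not stated, and p-values therefore reflect only how these libraries scatter, which could be technical scatter. With 1 parental line and 1 sub-clone, resistance and any other difference between the lines cannot be told apart.

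The libraries held 16966569 to 26603422 counts, and libraries of one line differed by more than sampling noise (chi-square per gene 2.92 to 9.67, against 52.97 to 80.22 between the lines). All 14 precursor B-cell markers examined were measured in both lines, at summed levels of 7042 to 7629 CPM (counts scaled to a common library size) in the Sup-PR libraries, against 8885 to 9873 CPM in the Sup-B15 libraries, and of the 14 none was called higher and 5 lower. A gene is called higher or lower below where edgeR's quasi-likelihood test gave a Benjamini-Hochberg adjusted p under 0.05 with a fold change over 1.5. On that scale 23.0% of all genes tested were called, 7.53% as higher in Sup-PR and 15.4% as lower. An exact permutation test of 3 against 3 libraries cannot go below p = 0.1, and smaller values draw on the variance that edgeR pools over genes.

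TGF-beta is secreted in a latent form, held by its own propeptide, and latent TGF-beta binding proteins such as LTBP1 attach that complex to the extracellular matrix. Once released, the ligand joins the type II receptor TGFBR2 to the type I receptor TGFBR1, which phosphorylates SMAD2 and SMAD3. These enter the nucleus with SMAD4 and change the transcription of target genes, while SMAD7 and SKI restrain the signal at the receptor and on chromatin. In lymphoid cells, including B-cell precursors, TGF-beta is best known for restraining proliferation.

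LTBP1 (ENSG00000049323) spans chr2:32946972-33399509 on the plus strand of GRCh38. RefSeq (GRCh38.p14) lists 3 starts for it, and the second lies 187.4 kb downstream of the first. The bases before the first 2 starts are shown because the change in LTBP1 was counted over the whole gene, which does not say from which start its RNA came. Capitals mark CAGAC or its reverse complement GTCTG, the short motif to which SMAD3 and SMAD4 bind.

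LTBP1 upstream start, chr2:32946703-32946952, plus strand: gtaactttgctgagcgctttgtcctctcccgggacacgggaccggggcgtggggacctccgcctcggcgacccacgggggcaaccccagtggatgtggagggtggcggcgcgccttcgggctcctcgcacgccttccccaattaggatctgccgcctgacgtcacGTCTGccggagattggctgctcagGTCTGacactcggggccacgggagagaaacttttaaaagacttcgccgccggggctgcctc

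LTBP1 downstream start, chr2:33134119-33134368, plus strand: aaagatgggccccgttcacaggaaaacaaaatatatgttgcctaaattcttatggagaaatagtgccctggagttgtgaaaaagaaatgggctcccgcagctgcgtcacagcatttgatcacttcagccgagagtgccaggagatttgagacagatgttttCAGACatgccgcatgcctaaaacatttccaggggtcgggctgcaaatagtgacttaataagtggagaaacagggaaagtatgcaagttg

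The upstream stretch had a GC content of 66.4% with 24 CpG dinucleotides, and the downstream one 45.2% with 6. The upstream stretch held 2 copies of the short motif and the downstream one 1. In windows of 300 bases around the start (250 before it and 50 after it), searched on both strands, the short motif was found in 45.3% of all 35116 RefSeq windows and in 12 of the 26 windows of the genes described here (46.2%). Windows were found for 9 of the 10 genes, and SKI had none. A match of so few letters is a description and not a binding site.

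LTBP1, which ties latent TGF-beta to the matrix, was the gene with the largest difference of the 10. Sup-PR libraries 1, 2 and 3 had 6.38, 5.82 and 6.72 CPM of LTBP1 (127, 134 and 150 counts), against 0.401, 0.0363 and 0.158 CPM in Sup-B15 libraries 1, 2 and 3 (7, 1 and 3 counts). Every Sup-PR library lay far above every Sup-B15 library. The mean was 6.31 ± 0.451 CPM in Sup-PR and 0.198 ± 0.186 CPM in Sup-B15 (SD, n = 3 each). The log2 fold change was 5.14 (SE 0.363), the 9th highest of the 14869 genes tested. Scaled to library size, 411 counts in Sup-PR against 11 in Sup-B15 give a ratio of 36.7, with a 95% exact interval of 20.3 to 74.1 that covers counting error only. The size of the change depended on the few Sup-B15 counts, since the log2 fold change was 6.09 without Sup-B15 library 1 and 4.49 without Sup-B15 library 2. LTBP1 passed the filter only through the Sup-PR libraries. In bulk RNA, more cells with LTBP1 RNA and more of it per cell cannot be told apart.

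LTBP1 is also made by matrix-producing cells, so markers of other cell types were read beside it. Of 11 fibroblast and stromal markers, 3 were tested and 0 were called (summed level 1140 to 1191 CPM in Sup-PR libraries, 1087 to 1233 CPM in Sup-B15 libraries). Most of that sum was COL6A3, a type VI collagen chain, at 1094 CPM in Sup-PR and 1112 CPM in Sup-B15. THY1 was at 53.2 CPM in Sup-PR and 46.5 CPM in Sup-B15, and PDGFRB at 11.3 CPM in Sup-PR and 11.2 CPM in Sup-B15, while COL1A1 and DCN stayed under the filter. The summed levels of the megakaryocyte and platelet markers (6.54 to 7.94 CPM in Sup-PR, 15.5 to 17.2 CPM in Sup-B15), the macrophage markers (34.16 to 34.97 CPM in Sup-PR, 40.2 to 49.3 CPM in Sup-B15), the T-cell markers (9.29 to 13.8 CPM in Sup-PR, 46.9 to 53.6 CPM in Sup-B15) and the endothelial markers (129.7 to 140.4 CPM in Sup-PR, 356 to 370.1 CPM in Sup-B15) were all lower in Sup-PR. The last 3 sums were mostly MRC1 (31.8 CPM in Sup-PR, 41.2 CPM in Sup-B15), TRAC (12.1 CPM in Sup-PR and 49.8 CPM in Sup-B15) and PECAM1 (133 CPM in Sup-PR and 363 CPM in Sup-B15). Of 7 megakaryocyte and platelet markers 3 were tested, of 8 macrophage markers 2, of 6 T-cell markers 1 and of 6 endothelial markers 3. ITGA2B, ITGB3, CD14, CD68, CD163, ITGAM, CD8A, VWF and TEK were under the filter, and CDH5, the cadherin of endothelial cells, was at 0 CPM in Sup-PR and 0.582 CPM in Sup-B15. Among the other tested markers, GP9 (1.84 CPM in Sup-PR, 11.3 CPM in Sup-B15) and CSF1R (1.95 CPM in Sup-PR, 3.84 CPM in Sup-B15) were called lower. GP1BA, TUBB1 and CLDN5 were tested and not called, and the rest of the markers listed were not analysed here. The stromal sums overlapped between the lines and the other sums were lower in Sup-PR, where LTBP1 was higher, and their part in the difference of LTBP1 was not tested.

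**Figure D1:**
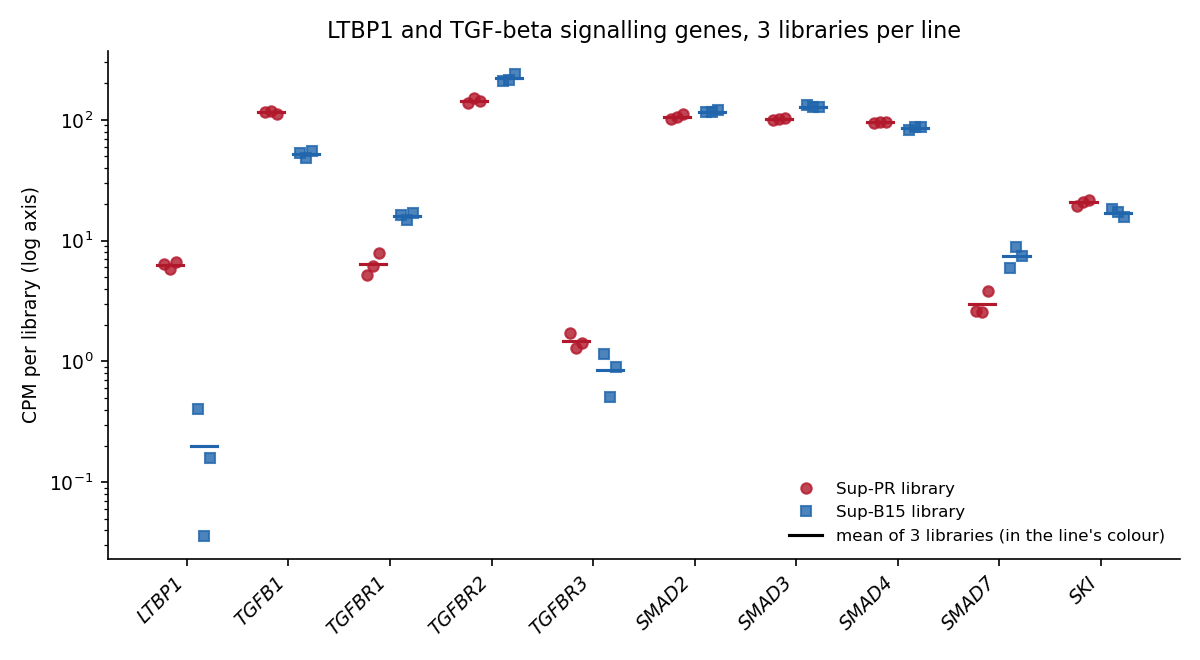
CPM of the 10 genes on a log axis, with circles for the Sup-PR libraries on the left of each gene, squares for the Sup-B15 libraries on its right, and bars for the mean of 3 libraries. LTBP1 lies at 5.82 to 6.72 CPM in Sup-PR and at 0.0363 to 0.401 CPM in Sup-B15, and the libraries of the lines do not overlap for any of the 10 genes.

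TGFB1 (ENSG00000105329, chr19:41301587-41353911, minus strand), the ligand whose latent complex LTBP1 binds, moved in the same direction as LTBP1. Its level was 117, 119 and 112 CPM in Sup-PR libraries 1 to 3, against 52.7, 48.7 and 55.5 CPM in Sup-B15 libraries 1 to 3. The lowest Sup-PR library had more than the highest Sup-B15 library, and the means were 116 ± 3.63 CPM in Sup-PR and 52.3 ± 3.40 CPM in Sup-B15 (log2 fold change 1.15, SE 0.061, a fold of 2.22). TGFB1 shares 215 of its 3238 exonic bases with HNRNPUL1 on the opposite strand, and the counting's use of strand is not given in the sources used here. HNRNPUL1 itself was at 557 CPM in Sup-PR and 553 CPM in Sup-B15, a log2 fold change of 0.01 (SE 0.049). CCDC97 and TMEM91 also lie across TGFB1 on the opposite strand but share none of its exonic bases.

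The signalling receptors were lower in Sup-PR. TGFBR1 (ENSG00000106799, chr9:99104038-99154192, plus strand), the type I receptor kinase, had 5.22, 6.22 and 7.88 CPM in Sup-PR libraries 1 to 3, against 16.2, 14.7 and 16.9 CPM in Sup-B15 libraries 1 to 3. Its mean was 6.44 ± 1.34 CPM in Sup-PR and 15.9 ± 1.15 CPM in Sup-B15, a log2 fold change of -1.30 (SE 0.136). All Sup-PR libraries were below all Sup-B15 libraries, and the spread within Sup-PR was wider than for most of the other genes. TGFBR2 (ENSG00000163513, chr3:30606502-30694142, plus strand), the type II receptor that binds the ligand first, had 138, 150.4 and 142 CPM in Sup-PR libraries, against 209, 215 and 240.1 CPM in Sup-B15 libraries. Its log2 fold change of -0.63 (SE 0.060, 1.54-fold lower in Sup-PR) lay just past the 1.5-fold threshold and fell short of it, at -0.57, without Sup-B15 library 3.

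TGFBR3 (ENSG00000069702, chr1:91680343-91906335, minus strand), the co-receptor betaglycan that presents ligand to TGFBR2, had the fewest counts of the 3 receptors. Its level was 1.71, 1.30 and 1.43 CPM in Sup-PR libraries (34, 30 and 32 counts), against 1.15, 0.508 and 0.894 CPM in Sup-B15 libraries (20, 14 and 17 counts). The groups were separate but close, and the log2 fold change of 0.85 had an SE of 0.330. TGFBR3 was called higher, yet it lost that call without Sup-PR library 1 (0.74), Sup-PR library 2 (0.92), Sup-PR library 3 (0.86), Sup-B15 library 2 (0.53) or Sup-B15 library 3 (0.90), and it kept its call in 7 of the 17 other settings that tested it. Its difference thus rested on few counts per library.

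The receptor-activated SMADs differed little. SMAD2 (ENSG00000175387, chr18:47808957-47931146, minus strand) had 102, 105 and 112 CPM in Sup-PR libraries, against 115, 115 and 121 CPM in Sup-B15 libraries, a log2 fold change of -0.14 (SE 0.054). SMAD3 (ENSG00000166949, chr15:67063763-67195195, plus strand) had 100.2, 102 and 103 CPM in Sup-PR libraries, against 131, 128 and 127 CPM in Sup-B15 libraries, a log2 fold change of -0.34 (SE 0.049). Of the pair, SMAD3 lay further from the parental level, and neither reached a fold of 1.5. SMAD4 (ENSG00000141646, chr18:51028394-51085045, plus strand), the shared partner of both, had 94.0, 95.7 and 95.7 CPM in Sup-PR libraries, against 82.9, 86.9 and 87.5 CPM in Sup-B15 libraries. Its log2 fold change was 0.15 (SE 0.051), opposite in sign to those of SMAD2 and SMAD3.

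The 2 restraining genes did not move together. SMAD7 (ENSG00000101665, chr18:48919853-48952052, minus strand), the inhibitory SMAD that TGF-beta itself induces, had 2.61, 2.56 and 3.85 CPM in Sup-PR libraries, against 5.90, 8.81 and 7.52 CPM in Sup-B15 libraries. Its mean was 3.01 ± 0.729 CPM in Sup-PR and 7.41 ± 1.46 CPM in Sup-B15, a log2 fold change of -1.31 (SE 0.198), with no overlap between the lines. SKI (ENSG00000157933, chr1:2228695-2310119, plus strand), a corepressor of SMAD complexes on chromatin, had 19.5, 21.0 and 21.9 CPM in Sup-PR libraries, against 18.2, 17.1 and 15.7 CPM in Sup-B15 libraries. The log2 fold change of SKI was 0.29 (SE 0.087), short of the fold threshold.

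Of the 10 genes, 3 were called higher (LTBP1, TGFB1 and TGFBR3) and 3 lower (TGFBR1, TGFBR2 and SMAD7), beside 7.53% and 15.4% of all genes tested. By adjusted p alone all 10 passed, beside 55.4% of all genes, and for all 10 the libraries of the lines did not overlap, beside 61.1%. The median log2 fold change was 0.005 over the 10 genes and -0.01 over all genes tested. Because the choice of genes used this comparison, nothing is read from these counts. The gene-wise plot of log2 fold changes shows that the changes past the threshold were in the binding protein, the ligand, the receptors and SMAD7, and that SMAD2, SMAD3, SMAD4 and SKI lay between -0.34 and 0.29.

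**Figure D2:**
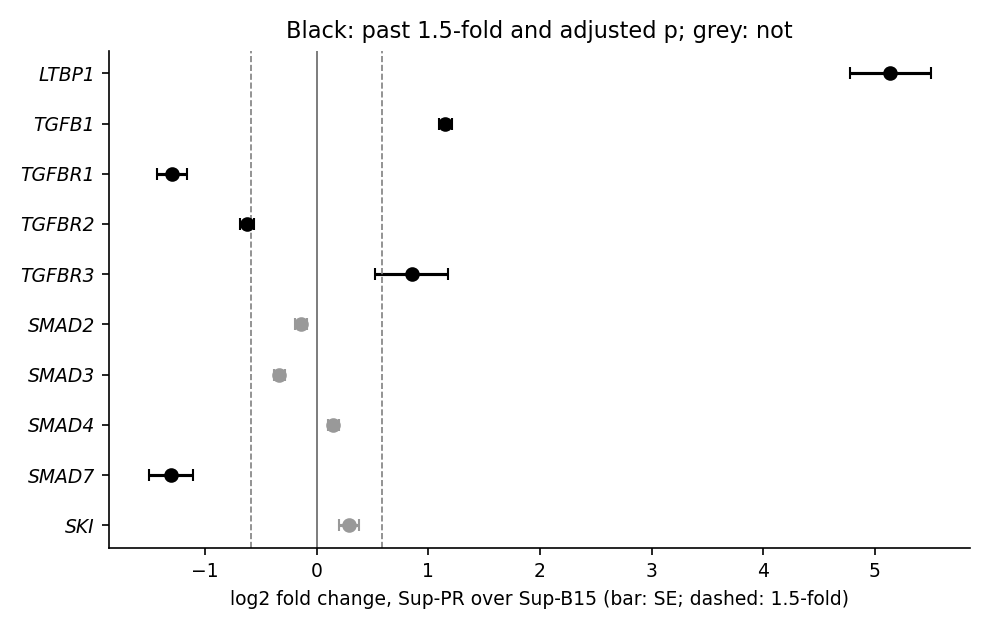
Log2 fold change of Sup-PR over Sup-B15 for the 10 genes, with bars for the SE and dashed lines at a fold of 1.5. LTBP1 stands at 5.14, TGFB1 at 1.15 and TGFBR3 at 0.85, TGFBR1 at -1.30, SMAD7 at -1.31 and TGFBR2 at -0.63, and the other 4 (grey) lie inside the dashed lines.

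Levels of different genes were compared per length, as the FPKM that the authors deposited (fragments divided by the length of the gene and by the size of the library). In Sup-PR the order of mean FPKM was TGFB1 (35.7), TGFBR2 (30.4), SMAD3 (11.1), SMAD4 (7.22), SKI (3.41), SMAD2 (2.91), TGFBR1 (0.939), LTBP1 (0.857), SMAD7 (0.596) and TGFBR3 (0.169). Of these neighbours in the order, TGFBR1 and LTBP1 overlapped between libraries and the rest did not. In Sup-B15 the order was TGFBR2 (46.6), TGFB1 (16.0), SMAD3 (14.0), SMAD4 (6.47), SMAD2 (3.19), SKI (2.77), TGFBR1 (2.31), SMAD7 (1.46), TGFBR3 (0.0965) and LTBP1 (0.0268), with no overlap between neighbours. The table divides SMAD2 by a length of 36366 bases, the longest of the 10, and its FPKM depends on that length. LTBP1 thus had the lowest level of the 10 genes in Sup-B15, and overlapped with TGFBR1 in Sup-PR.

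Ratios of FPKM within a library show how the balance of the genes differed. The ratio of ligand to type II receptor, TGFB1 over TGFBR2, was 1.17 ± 0.0454 in Sup-PR and 0.343 ± 0.0201 in Sup-B15, so the more abundant RNA of the pair was TGFB1 in Sup-PR and TGFBR2 in Sup-B15. TGFBR2 exceeded TGFBR1 33.3 ± 6.35 times in Sup-PR and 20.2 ± 1.33 times in Sup-B15. SMAD3 exceeded SMAD7, its inhibitor, 19.3 ± 3.95 times in Sup-PR and 9.88 ± 2.20 times in Sup-B15. SMAD4 over SMAD3 was 0.649 ± 0.00377 in Sup-PR and 0.463 ± 0.0220 in Sup-B15. TGFB1 over LTBP1 was 41.4, 46.3 and 37.7 in Sup-PR libraries, against 298, 3040 and 795 in Sup-B15 libraries, where LTBP1 rested on 1 to 7 counts. None of these ratios overlapped between the lines.

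The nearest tested genes on each side of LTBP1 on its chromosome had smaller differences. Of the 5 on each side, 1 was called higher and 2 lower, beside 7.53% and 15.4% of all genes tested, and their log2 fold changes ran between -1.35 and 0.82 with a median of 0.27. TTC27, the nearest tested gene upstream, was at 24.5 CPM in Sup-PR and 15.9 CPM in Sup-B15 (log2 fold change 0.63, adjusted p = 1.0e-04). RASGRP3, an activator of RAS proteins that starts 36.8 kb beyond the end of LTBP1, was at 1.11 CPM in Sup-PR and 2.84 CPM in Sup-B15 (log2 fold change -1.35, adjusted p = 0.0019). The other 3 downstream genes lay 2956.4 to 3440.4 kb away. Of these CRIM1, a transmembrane protein that binds bone morphogenetic proteins (BMPs), was at 70.6 CPM in Sup-PR and 124 CPM in Sup-B15 (log2 fold change -0.81, adjusted p = 6.4e-08).

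**Figure D3:**
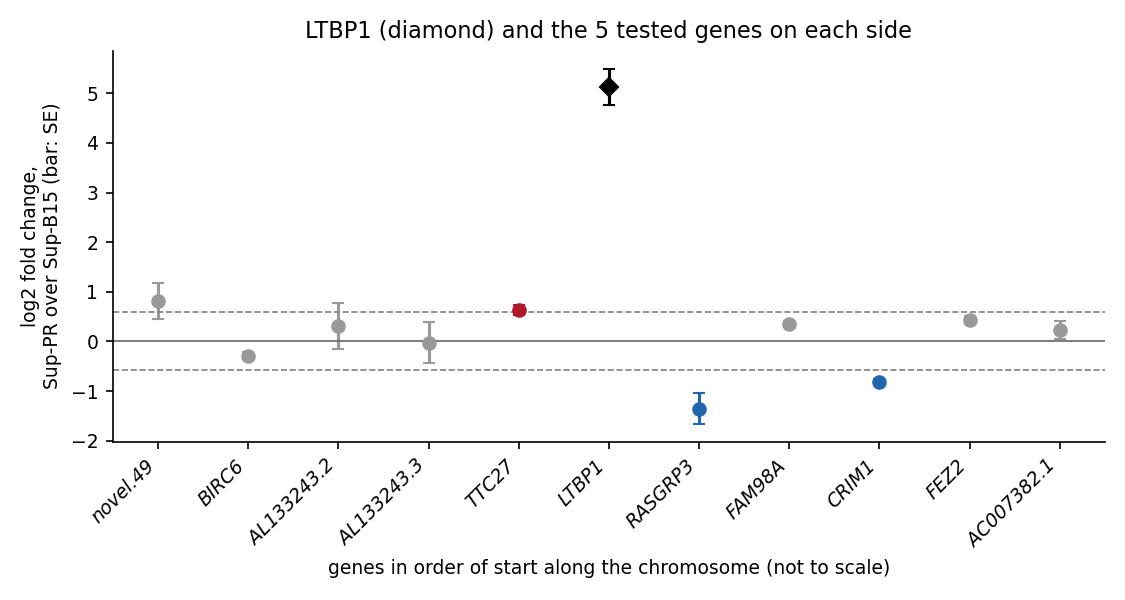
Log2 fold change of Sup-PR over Sup-B15 (bars: SE) for LTBP1 (diamond) and the 5 tested genes on each side, in order of their start and not to scale. LTBP1 stands at 5.14 while the 10 neighbours lie between -1.35 and 0.82.

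Other genes of the pathway were taken from lists by role, leaving out the 10 genes already described. Of 205 listed genes 139 were tested, and 14 were called higher and 18 lower in Sup-PR, with a median log2 fold change of -0.06 over the 139, beside -0.01 over all genes tested. The share called is close to that of all genes tested (23.0%), and the lists, too, were written with earlier results of these data known. The plot of the lists shows the spread of each, and the roles are taken in order below, with adjusted p-values from the edgeR fit across all genes. Each count of calls in a role stands beside 7.53% called higher and 15.4% called lower of all genes tested. Nothing is read from the count of a single role.

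**Figure D4:**
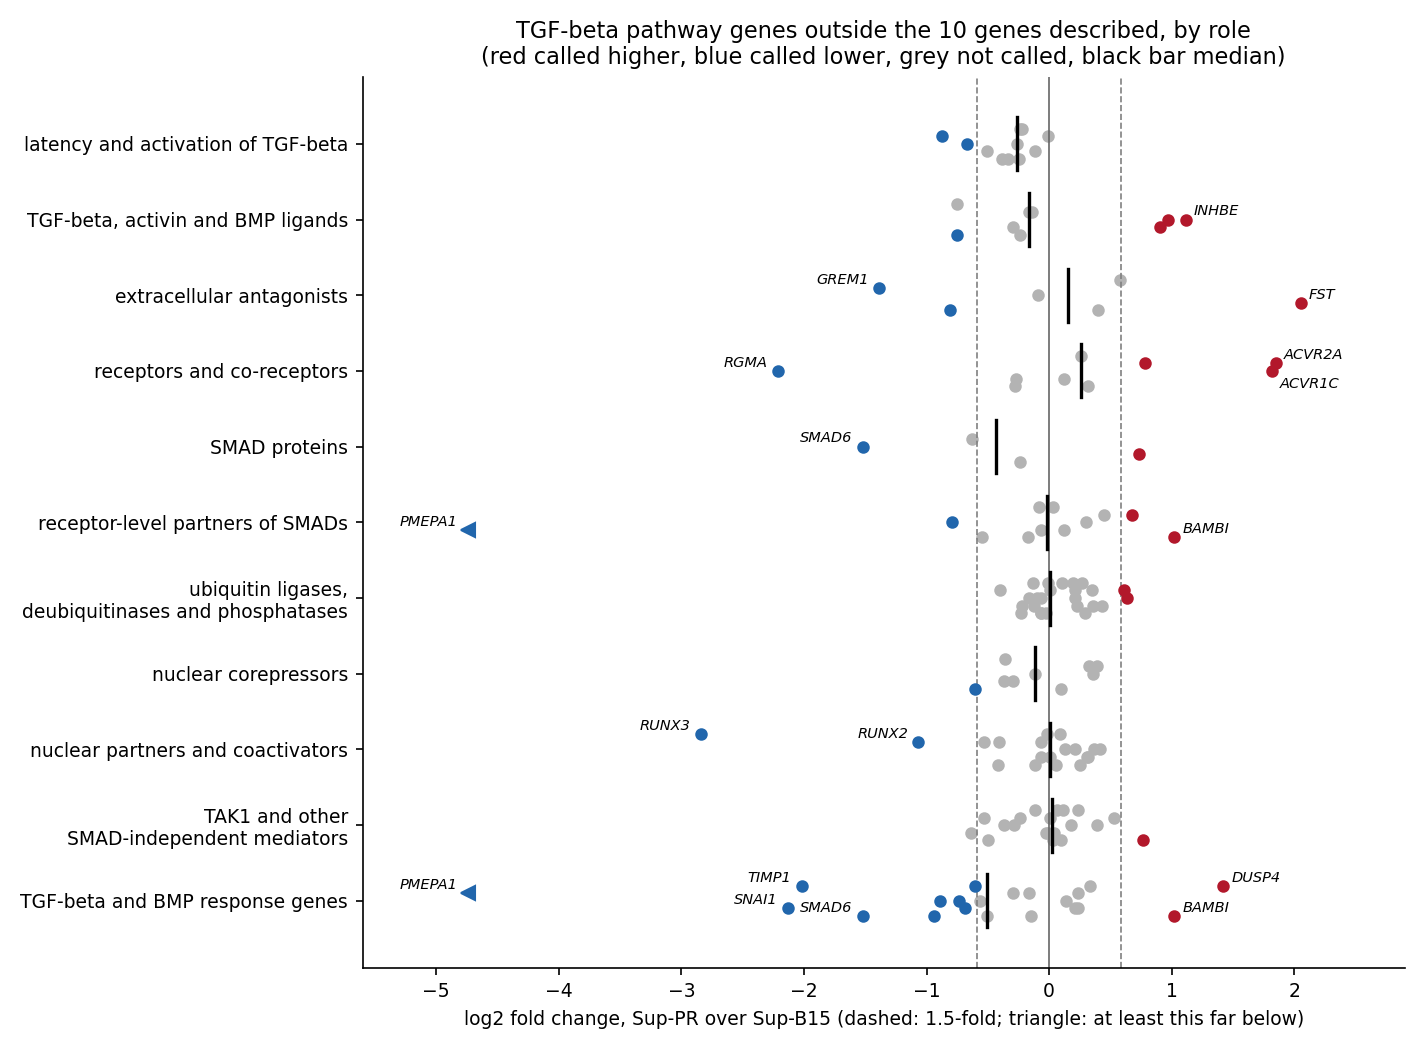
Log2 fold change of Sup-PR over Sup-B15 for 139 pathway genes in 11 lists by role (a gene may stand in more than 1 list), called genes in red or blue, the others in grey, black bars at the medians and dashed lines at a fold of 1.5. The median lies at -0.50 for the response genes and between -0.44 and 0.26 for the other lists, and the triangle gives PMEPA1, with no counts in Sup-PR, at its bound.

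Among genes of TGF-beta latency and activation other than LTBP1, 0 of 11 tested were called higher and 2 lower, with a median of -0.26. MMP14, a membrane metalloproteinase that can release latent TGF-beta, was at 111 ± 5.15 CPM in Sup-PR and 204 ± 1.64 CPM in Sup-B15 (log2 fold change -0.87, adjusted p = 1.1e-08). LTBP4, another latent TGF-beta binding protein, was at 11.9 CPM in Sup-PR and 18.9 CPM in Sup-B15 (log2 fold change -0.67, adjusted p = 1.5e-04), and its call was lost without Sup-PR library 3 (-0.58). The call of LTBP4 was also lost in the test against a fold of 1.5 and on log2(FPKM + 1). LTBP4 and LTBP1, which belong to the same family, thus differed between the lines in opposite directions. LTBP3 of that family, named after its values were seen, was at 18.7 CPM in Sup-PR and 20.1 CPM in Sup-B15 and was not called (log2 fold change -0.11).

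Among the ligands other than TGFB1, 3 of 9 tested were called higher and 1 lower. BMP3 was at 49.5 CPM in Sup-PR and 25.5 CPM in Sup-B15 (log2 fold change 0.97, adjusted p = 1.3e-06), BMP2 at 6.55 CPM in Sup-PR and 3.50 CPM in Sup-B15 (0.91, adjusted p = 2.8e-04) and INHBE, an inhibin beta chain, at 3.05 CPM in Sup-PR and 1.41 CPM in Sup-B15 (1.11, adjusted p = 7.8e-04). GDF11, which signals through the activin receptors to SMAD2 and SMAD3, was at 46.8 CPM in Sup-PR and 78.8 CPM in Sup-B15 (log2 fold change -0.75, adjusted p = 1.9e-07). Of the extracellular antagonists, 1 of 6 rose and 2 fell. FST, follistatin, which traps activins, had 1.11, 1.56 and 1.66 CPM in Sup-PR libraries, against 0.630, 0.326 and 0.105 CPM in Sup-B15 libraries (log2 fold change 2.05). These were 22, 36 and 37 counts in Sup-PR, against 11, 9 and 2 in Sup-B15. A filter of at least 10 counts in every library left FST out. It met the main filter on low counts through the Sup-PR libraries, as not every Sup-B15 library reached the filter's level. The difference of FST is thus a description, although it is counted among the genes that rose. The BMP antagonist GREM1 was at 5.79 CPM in Sup-PR and 15.3 CPM in Sup-B15 (log2 fold change -1.39, adjusted p = 4.5e-06), and CRIM1 has been given above. The antagonists not called, named after their values were seen, were NOG, TWSG1 and FSTL3. NOG, at 65.3 CPM in Sup-PR and 43.8 CPM in Sup-B15, lay just under the fold threshold (0.58). TWSG1 was also higher in Sup-PR (0.40), and FSTL3 differed little (-0.09).

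Receptors outside the 10 genes gave 3 higher and 1 lower of 9 tested, with a median of 0.26. The activin type II receptor ACVR2A had 2.26, 1.78 and 2.15 CPM in Sup-PR libraries, against 0.515, 0.761 and 0.368 CPM in Sup-B15 libraries (log2 fold change 1.85). Its Sup-B15 counts were 9, 21 and 7, and a filter of at least 10 counts in every library left ACVR2A out. It met the main filter on low counts through the Sup-PR libraries, as not every Sup-B15 library reached the filter's level. The difference of ACVR2A is thus a description, although it is counted among the genes called higher. The type I receptor ACVR1C, also called ALK7, had 2.81, 2.61 and 3.31 CPM in Sup-PR libraries, against 0.687, 0.906 and 0.842 CPM in Sup-B15 libraries (log2 fold change 1.82, adjusted p = 2.9e-05). Other activin-type receptors of the list, named after their values were seen, were not called, with log2 fold changes of 0.12 for ACVR1B, 0.26 for ACVR2B and 0.31 for ACVR1. The BMP co-receptors moved apart, since RGMB was at 9.85 CPM in Sup-PR and 5.73 CPM in Sup-B15 (log2 fold change 0.78, adjusted p = 6.1e-05) and RGMA at 2.81 CPM in Sup-PR and 13.2 CPM in Sup-B15 (-2.21, adjusted p = 4.4e-08).

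Of the other 4 SMADs, 1 rose and 1 fell. SMAD5, a receptor-activated SMAD of the BMP branch, had 90.4, 85.4 and 89.1 CPM in Sup-PR libraries, against 57.7, 52.3 and 49.7 CPM in Sup-B15 libraries (log2 fold change 0.73, adjusted p = 5.0e-07). SMAD6, the inhibitory SMAD of that branch, had 0.653, 0.652 and 1.21 CPM in Sup-PR libraries, against 2.46, 2.18 and 2.68 CPM in Sup-B15 libraries (log2 fold change -1.52, adjusted p = 4.8e-04). Both inhibitory SMADs, SMAD6 here and SMAD7 above, were therefore lower in Sup-PR.

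Of 12 partners of the SMADs at the receptor, 2 rose and 2 fell. STRAP, which helps SMAD7 to block the receptor, was at 188 CPM in Sup-PR and 118 CPM in Sup-B15 (log2 fold change 0.68, adjusted p = 1.2e-06), and the decoy receptor BAMBI at 4.67 CPM in Sup-PR and 2.27 CPM in Sup-B15 (1.02, adjusted p = 7.9e-04). SPTBN1, a spectrin that also serves as a SMAD adaptor, was at 485 CPM in Sup-PR and 840 CPM in Sup-B15 (log2 fold change -0.79, adjusted p = 2.1e-07). PMEPA1, a TGF-beta-induced protein that keeps SMAD2 and SMAD3 from the receptor, had 0, 0 and 0 counts in Sup-PR libraries, against 15, 32 and 32 counts in Sup-B15 libraries. With a floor of 3 counts over the 3 Sup-PR libraries it was at least 26.8-fold lower in Sup-PR, although its level in Sup-B15 was no more than 1.68 CPM. PMEPA1 passed the filter only through the Sup-B15 libraries, so its difference is a description. It is counted among the genes that fell here and in the list of response genes below.

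Of 25 ubiquitin ligases, deubiquitinases and phosphatases that act on SMADs or receptors, 2 rose and 0 fell (median 0.005), and another 13 passed the adjusted p but not the fold. Of all 14869 genes tested, 4824 passed the adjusted p but not the fold. The 2 that rose were the deubiquitinase UCHL5 (132 CPM in Sup-PR, 86.8 CPM in Sup-B15, log2 fold change 0.61, adjusted p = 4.8e-07) and the ubiquitin ligase RNF111 (55.1 CPM in Sup-PR and 35.5 CPM in Sup-B15, 0.63, adjusted p = 1.5e-05). Both lay near the fold threshold, UCHL5 falling short without Sup-PR library 3 (0.57) or Sup-B15 library 1 (0.58) and RNF111 without Sup-B15 library 3 (0.53). Of 9 corepressors other than SKI, 0 rose and 1 fell, SKIL, the close relative of SKI, at 21.4 CPM in Sup-PR and 32.6 CPM in Sup-B15 (log2 fold change -0.60, adjusted p = 2.2e-04). SKIL lost its call without Sup-PR library 1 (-0.48) or Sup-B15 library 3 (-0.57). HDAC1, a histone deacetylase, was at 209 CPM in Sup-PR and 269.9 CPM in Sup-B15 (log2 fold change -0.37), and NCOR1 at 228 CPM in Sup-PR and 246 CPM in Sup-B15 (-0.11).

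Of 19 nuclear partners and coactivators, 0 rose and 2 fell, RUNX3 and RUNX2, factors that work with SMAD3 on shared targets. RUNX3 had 0.402, 0.695 and 0.493 CPM in Sup-PR libraries, against 4.41, 2.97 and 4.31 CPM in Sup-B15 libraries (log2 fold change -2.84). Its Sup-PR counts were 8, 16 and 11, and a filter of at least 10 counts in every library left RUNX3 out. RUNX2 was at 0.705 CPM in Sup-PR and 1.48 CPM in Sup-B15 (log2 fold change -1.07). It lost its call without Sup-PR library 2 (-0.82), Sup-PR library 3 (-1.01) or Sup-B15 library 1 (-0.88). RUNX3 and RUNX2 met the main filter on low counts through the Sup-B15 libraries, as not every Sup-PR library reached the filter's level. Their differences are thus a description, although both are counted among the genes that fell. The third RUNX gene, RUNX1, named after its values were seen, was at 293 CPM in Sup-PR and 219.7 CPM in Sup-B15, with a log2 fold change of the other sign that stayed under the fold threshold (0.41, adjusted p = 1.3e-05). Of 20 mediators outside the SMAD route 1 rose and 0 fell, CDC42, at 1.72 CPM in Sup-PR and 1.01 CPM in Sup-B15 (log2 fold change 0.77, adjusted p = 0.022). This low value is uncertain, since CDC42 has near-identical copies that can share its reads, and the call was lost without Sup-PR library 2 (0.69) or 3 (0.73), or without Sup-B15 library 2 (0.80) or 3 (0.68). RHOA was at 757 CPM in Sup-PR and 724 CPM in Sup-B15 (log2 fold change 0.06) and PAK2 at 306 CPM in Sup-PR and 312 CPM in Sup-B15 (-0.03).

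Genes known to respond to TGF-beta or BMPs in other cells were read as a further list. Of 21 tested outside the 10 genes, 2 rose and 9 fell, beside 7.53% called higher and 15.4% called lower of all genes tested, among which lower calls also outnumbered higher ones (2293 against 1120). The list had a median log2 fold change of -0.50, beside -0.01 over all genes tested. TIMP1, an inhibitor of matrix metalloproteinases, had 6.68, 7.56 and 8.28 CPM in Sup-PR libraries, against 28.2, 29.5 and 33.7 CPM in Sup-B15 libraries (log2 fold change -2.02, adjusted p = 3.2e-09). ID2, an inhibitor of basic helix-loop-helix factors and a BMP target, had 24.1, 28.3 and 31.5 CPM in Sup-PR libraries, against 48.2, 47.3 and 61.0 CPM in Sup-B15 libraries (log2 fold change -0.89, adjusted p = 1.9e-05). KLF10, an early TGF-beta-induced zinc finger factor, had 4.32, 5.39 and 5.60 CPM in Sup-PR libraries, against 10.02, 9.68 and 9.73 CPM in Sup-B15 libraries (log2 fold change -0.94, adjusted p = 3.7e-05). In each of these genes the highest Sup-PR library was below the lowest Sup-B15 library.

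PMEPA1, SMAD6 and SKIL, given above, belong to the same list, and SMAD7 is a response gene too. The other 3 that fell, named after their values were seen, were SNAI1, TAGLN and KLF11. SNAI1, a transcription factor, was at 0.825 CPM in Sup-PR and 3.58 CPM in Sup-B15 (log2 fold change -2.13). Its counts were 24, 22 and 7 in Sup-PR libraries, against 67, 106 and 58 in Sup-B15 libraries. SNAI1 met the filter on low counts through the Sup-B15 libraries, so its difference is a description. TAGLN, an actin-binding protein, was at 3.51 CPM in Sup-PR and 5.87 CPM in Sup-B15 (-0.74, SE 0.196, adjusted p = 0.0059). KLF11 was at 1.30 CPM in Sup-PR and 2.07 CPM in Sup-B15 (-0.68, SE 0.258, adjusted p = 0.036). These 3 calls were not followed one by one over the other settings. The response genes that rose were BAMBI, given above, and DUSP4, a phosphatase that inactivates MAP kinases, which had 16.8, 17.9 and 18.2 CPM in Sup-PR libraries, against 6.30, 6.74 and 6.73 CPM in Sup-B15 libraries (log2 fold change 1.42, adjusted p = 5.7e-08). The remaining 10 genes of the list were not called, and 5 of them passed the adjusted p but not the fold. Of these, named after their values were seen, ID3 (log2 fold change 0.23) and JUNB (0.33) were higher in Sup-PR. NEDD9 (-0.56), TGIF1 (-0.29) and VIM (-0.15) were lower.

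**Figure D5:**
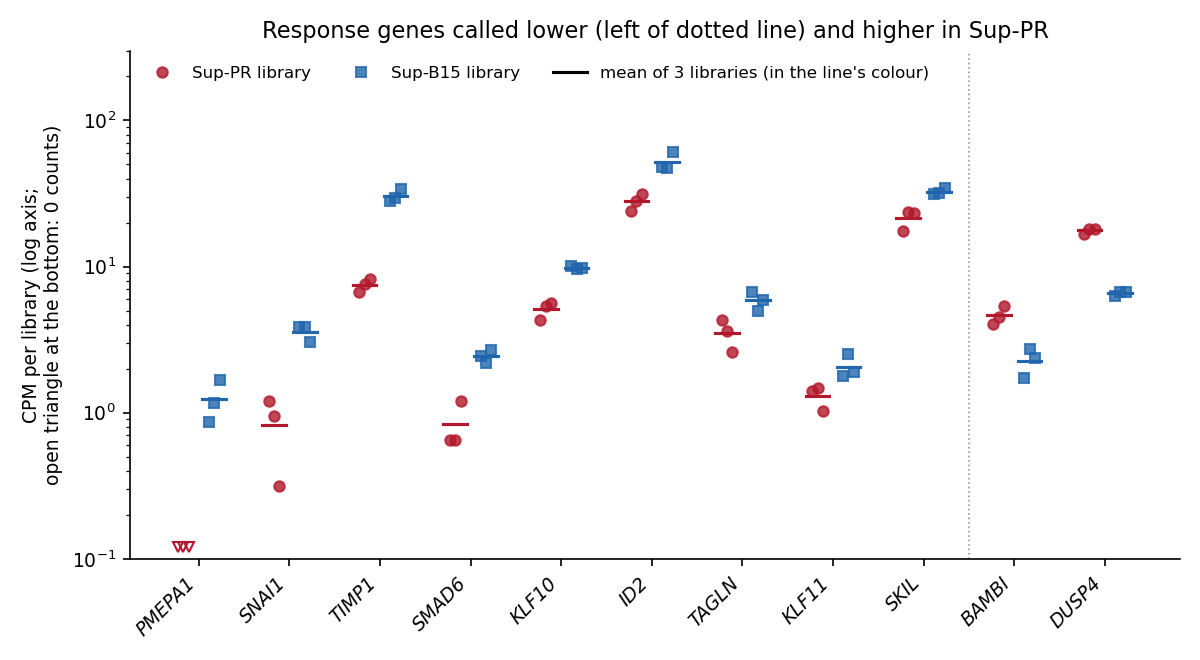
CPM on a log axis for the response genes called lower (left of the dotted line) and higher in Sup-PR, with circles for Sup-PR libraries, squares for Sup-B15 libraries, bars for means and open triangles for PMEPA1, which had 0 counts in all Sup-PR libraries. TIMP1 lies at 6.68 to 8.28 CPM in Sup-PR and 28.2 to 33.7 CPM in Sup-B15, and DUSP4 at 16.8 to 18.2 CPM in Sup-PR and 6.30 to 6.74 CPM in Sup-B15.

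SMAD6 is shown by sequence because, among the windows of the response genes, its start alone held GTCTAGAC, the palindromic SMAD element, which holds no full copy of the short motif. The stretch before it has a GC content of 68.0%, and capitals mark the element.

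SMAD6 start, chr15:66701986-66702235, plus strand: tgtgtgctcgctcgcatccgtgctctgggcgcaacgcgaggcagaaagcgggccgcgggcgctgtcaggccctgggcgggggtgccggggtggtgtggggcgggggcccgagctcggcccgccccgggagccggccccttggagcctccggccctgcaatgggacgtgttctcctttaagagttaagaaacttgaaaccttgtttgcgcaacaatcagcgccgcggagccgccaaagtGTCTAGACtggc

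GTCTAGAC, which reads the same on both strands, was found in 0.202% of all 35116 windows, in 0 of the 26 windows of the 10 genes and in 1 of the 13 windows of response genes called lower, SMAD7 included. The short motif was in 7 of those 13 windows (53.8%), in the 1 window of genes called higher and in 8 of the 17 windows of genes not called (47.1%). Apart from the single window, these shares lie near the 45.3% of all windows. Windows were found for 17 response genes, SMAD7 included. Among the response genes called, KLF10, SNAI1, TAGLN and DUSP4 had none and were not searched. Where no match was found, only these letters were absent from these windows.

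Finally, the genes whose pattern over the 6 libraries was most like that of LTBP1 were read off by Pearson's correlation of log2(CPM + 0.5) over 11124 protein-coding candidates. They were ABCC4, a transporter that exports nucleotides and drugs (r = 0.9997), PUSL1 (0.9991), NSUN2, an RNA cytosine methyltransferase (0.9990), RNH1, the ribonuclease inhibitor (0.9988), and PPTC7 (0.9985). Their differences were far smaller than that of LTBP1, from 45.9 CPM in Sup-PR against 27.9 CPM in Sup-B15 for ABCC4 (log2 fold change 0.72) to 106 CPM in Sup-PR against 82.2 CPM in Sup-B15 for RNH1 (0.37). As the 6 points form 2 groups, a gene scores highly if it is higher in Sup-PR and scatters little within the lines beside that difference. Of the candidates, 204 genes had an r over 0.99 and 1565 over 0.95, so the order among them is a description only.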

How the data were processed

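Total RNA of 6 untreated libraries was sequenced from paired ends, after library preparation with a NEBNext Ultra kit. The submitters' processing notes name CASAVA, HISAT2, DESeq2 and the build GRCh38.p12, without tool versions. Which program counted the reads, on which annotation and whether by strand is not given in the sources used here. The authors deposited raw counts per gene and FPKM, in which each count is divided by the length of its gene and a library constant. They also deposited a scaled signal per library (counts over a size factor). The deposited table further holds the log2 fold change and p-value of the authors' own comparison, which were not used. Columns were mapped to samples by line name and replicate number, with 0 columns of sample values left unmapped.

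Counts were filtered with filterByExpr, scaled by TMM and tested with the quasi-likelihood test of edgeR 4.0.16 (R 4.3.3, limma 3.58.1), with Benjamini-Hochberg adjustment over all 14869 genes tested. CPM use the scaled library sizes. The procedure was tested on simulated data. Settings tried were DESeq2 1.42.0, limma-voom, other scalings, filters and thresholds, log2(FPKM + 1 or 0.1), a replicate block and each library left out. The genes described and the gene lists were chosen with earlier results of these data known. Genes named from a list are up to 4 per direction with the smallest adjusted p among those called, or the 2 with the highest mean CPM where fewer than 2 were called, unless stated otherwise. Promoter sequences are from RefSeq (GRCh38.p14), searched with Python 3.11.15, and figures were drawn with matplotlib 3.10.9. All 205 listed genes were looked up by name. Of these, 176 were found in the deposited table, and the others could not be analysed here.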

Additional observations from a re-analysis of the deposited data

How the results depend on the processing

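Over 19 other settings the direction of each of the 10 genes held wherever that gene was tested. TGFB1, TGFBR1 and SMAD7 kept their calls in all 19, LTBP1 in the 16 that tested it, TGFBR2 in 17 of 19 and TGFBR3 in 7 of the 17 that tested it. By adjusted p alone 4168 genes were higher and 4069 lower, with 5 and 5 of the 10 genes, 42 and 44 pathway genes and, of the response genes, 4 higher. Testing against a fold of 1.5 (glmTreat) gave 484 higher and 1318 lower, 7 pathway genes higher and 1 response gene higher. With log2(FPKM + 1) the counts were 631 higher and 943 lower, 1 of the 10 genes higher, 5 pathway genes higher and 8 lower and 4 response genes lower. With log2(FPKM + 0.1) they were 1290 lower, 1 of the 10 genes higher and 11 pathway genes lower. With log2(FPKM + 1) and no filter they were 661 higher and 1093 lower, 5 pathway genes higher and 10 lower and 4 response genes lower. Both filtered FPKM settings left out LTBP1 and TGFBR3, and without a filter the pseudocount reduced LTBP1 to a log2 difference of 0.85. The log2 fold change of RHOA, which was not called, reversed from 0.06 to -0.005 when scaled by library size only. Over all settings, the named pathway genes, leaving aside those named after their values were seen, lost a call in 51 cases, gained one in 1 and kept their standing in 548.

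Leaving out each library gave 2 to 3 of the 10 genes higher and 2 to 3 lower, 12 to 15 pathway genes higher and 15 to 21 lower, and 7 to 9 response genes lower. Same-numbered libraries did not deviate together in every pair (r = 0.24, -0.09 and 0.30), so the numbers were not taken as pairing, and the fit with a replicate block gave 3 and 3 of the 10 genes and 15 and 19 pathway genes. Low counts limit the precision for LTBP1 in Sup-B15 (1 to 7 per library) and for TGFBR3 (14 to 34 per library).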
